A study of Homo sapiens with 54 samples.

Results

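The proteins that recognize foreign nucleic acids inside the cell, and the enzymes that act on that signal, are encoded by the 10 genes described here, namely RIGI (also called DDX58), IFIH1, DHX58, OAS1, OAS2, OAS3, OASL, EIF2AK2, ADAR, and ZBP1. They were chosen by name, as sensors of RNA and DNA in antiviral defense, out of 31835 gene identifiers in the count table, and all 10 were matched. The libraries came from OCI-Ly1, an established human germinal center B cell lymphoma line, stably transduced with a lentiviral vector that drives Flag-tagged STAT6 from the CMV promoter. STAT6 is the transcription factor that IL-4 activates. The vector carried either STAT6 WT or 1 of 3 mutants of the DNA binding domain (D419G, D419N, or N421K), which are together called STAT6 MUT.

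All cells, STAT6 WT included, received IL-4 (10 ng/ml) as a pulse of 20 min and were harvested 2, 4, or 8 h after it was washed out. STAT6 WT and STAT6 MUT (3 per mutant) had 9 libraries each at every time point, 54 in all. The parental line carries a STAT6 variant in the same domain and keeps its own STAT6. No library without IL-4 or with an empty vector was analysed here, so the values compare STAT6 MUT with STAT6 WT and give no resting level. The labels call the libraries biological replicates, but the number of independent transductions per construct is not given, so genotype and transduced population cannot be told apart, and p-values measure the spread between these libraries.

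RNA was counted as unique molecular identifiers (UMIs), that is, molecules caught at their 3′ end and not copies made by PCR. Between 161518 and 2978715 UMIs were counted per library (median 885258.5). Of these libraries, 8 (6 STAT6 MUT, 2 STAT6 WT) held less than 0.5 of the median and are called libraries of low depth. Levels are given as CPM, that is, UMIs per 1000000 UMIs of the genes tested, scaled by TMM. The label of a B cell line was checked against markers: 7 of 7 B lineage genes and 3 of 3 germinal center genes were detected, the 4 T and NK cell markers had no UMI, and the summed myeloid markers reached at most 2.2 CPM in any library. Endogenous STAT6 and the construct may both be counted under STAT6. STAT6 stood at 165 CPM ± 22.5 (SD, n = 27) in STAT6 WT libraries and at 155 ± 29.9, 157 ± 28.7, and 139 ± 23.2 (SD, n = 9 each) in D419G, D419N, and N421K. For STAT6, this was a log2 fold change of -0.15 (SE 0.0438, adjusted p = 0.00982), and the part of this difference in the results was not tested.

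RIG-I (RIGI) and MDA5 (IFIH1) are helicases that bind double-stranded RNA in the cytosol and signal through the adaptor MAVS toward type I interferon, and LGP2 (DHX58) is their relative without a signaling domain. The 2′-5′-oligoadenylate synthetases OAS1, OAS2, and OAS3 make the second messenger 2′-5′-oligoadenylate, OASL is a relative that lacks this activity, PKR (EIF2AK2) halts translation by phosphorylating eIF2α, ADAR1 (ADAR) edits adenosine to inosine and so keeps the cell's own double-stranded RNA from being sensed, and ZBP1 binds Z-form nucleic acid and can start necroptosis. As a group they are interferon-stimulated genes: interferon activates the transcription factor complex ISGF3, which binds the interferon-stimulated response element (ISRE), so that sensors and signal feed each other. STAT6 binds another element, a palindrome of TTC and GAA.

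The genes lie on 6 chromosomes (GRCh38, GENCODE v44). OAS1 (chr12:112905856-112933219), OAS3 (chr12:112938051-112976460), and OAS2 (chr12:112978395-113011723) are neighbors on the plus strand, and a long noncoding RNA gene on the other strand overlaps all 3. RIGI (chr9:32455302-32526208), IFIH1 (chr2:162267074-162318684), EIF2AK2 (chr2:37099210-37157522), DHX58 (chr17:42101404-42112714), OASL (chr12:121017763-121039246), ADAR (chr1:154581695-154628013), and ZBP1 (chr20:57603846-57620576) lie on the minus strand. The end of EIF2AK2 overlaps GPATCH11 on the other strand (2247 UMIs, against 5818 of EIF2AK2), and RIGI overlaps another coding gene on its own strand. These overlaps could share UMIs, since the use of strand in counting is not given. All 10 genes are protein coding, and a count at the 3′ end cannot separate the interferon-inducible from the constitutive isoform of ADAR.

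Promoter sequences were at hand for 6 of the 10 genes (RefSeq, GRCh38.p14, a window of 300 bases around the start site). They are shown because the letters that ISGF3 and STAT6 read differ between genes that were higher together. The stretches below are written 5′ to 3′ on the strand of the gene, from 210 bases before to 10 bases after the annotated start, for IFIH1 (chr2:162318675-162318894, minus strand), OAS3 (chr12:112938264-112938483, plus), EIF2AK2 (chr2:37156971-37157190, minus), RIGI (chr9:32526187-32526406, minus), and OAS1 (chr12:112906752-112906971, plus). Capitals mark every match on either strand to 4 motifs: the ISRE core (GAAANNGAAA), the palindrome STAT6 prefers (TTCNNNNGAA), the shorter palindrome of other STATs (GAS, TTCNNNGAA), and a GAAA pair 1 base apart (GAAANGAAA), the last added after the promoters had been read.
IFIH1: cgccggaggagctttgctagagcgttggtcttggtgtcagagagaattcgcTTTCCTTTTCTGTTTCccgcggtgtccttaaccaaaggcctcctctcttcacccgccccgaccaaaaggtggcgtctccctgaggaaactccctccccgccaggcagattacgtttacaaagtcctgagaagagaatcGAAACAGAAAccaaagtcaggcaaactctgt
OAS3: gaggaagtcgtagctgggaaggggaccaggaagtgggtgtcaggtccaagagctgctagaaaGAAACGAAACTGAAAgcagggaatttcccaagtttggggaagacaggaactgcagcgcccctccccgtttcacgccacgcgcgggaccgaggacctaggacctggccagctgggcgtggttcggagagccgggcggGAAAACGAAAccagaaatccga
EIF2AK2: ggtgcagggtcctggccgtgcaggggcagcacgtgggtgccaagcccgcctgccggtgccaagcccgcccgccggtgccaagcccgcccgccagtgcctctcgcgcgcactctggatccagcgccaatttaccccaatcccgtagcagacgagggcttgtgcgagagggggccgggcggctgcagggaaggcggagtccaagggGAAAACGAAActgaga
RIGI: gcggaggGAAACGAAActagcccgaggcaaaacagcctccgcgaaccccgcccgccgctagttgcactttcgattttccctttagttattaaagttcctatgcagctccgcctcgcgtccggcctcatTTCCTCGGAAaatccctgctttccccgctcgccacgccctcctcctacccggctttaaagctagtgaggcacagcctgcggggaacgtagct
OAS1: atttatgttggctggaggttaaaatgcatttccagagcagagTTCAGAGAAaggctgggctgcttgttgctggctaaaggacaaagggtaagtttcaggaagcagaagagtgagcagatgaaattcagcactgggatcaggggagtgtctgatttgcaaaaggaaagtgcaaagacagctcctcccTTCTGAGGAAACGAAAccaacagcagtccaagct

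The ISRE core stood in 3 of these promoters. IFIH1 held it 3 times, from -159 to -150, from -153 to -144 (both in the other orientation and overlapping), and from -21 to -12 relative to the start. OAS3 held it 2 times, at -143 to -134 and -12 to -3, and EIF2AK2 once, across the start itself at -6 to 4. Of all 35116 RefSeq promoter windows of this length, 3.57% held it.

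The STAT6 type palindrome was found in RIGI (-82 to -73) and OAS1 (-24 to -15), and in 6.44% of all windows. OAS1 also held the GAS palindrome (-168 to -160), as did 7.66% of all windows. The GAAA pair 1 base apart stood in RIGI, in OAS1 (where it overlaps the STAT6 type palindrome), and in OAS3 (where it overlaps the first ISRE core), and in 3.12% of windows. No match was found in the 3 windows of ADAR, of which those starting at 154627922 and 154627948 overlap. These matches describe letters, not binding. ADAR, EIF2AK2, and RIGI, which differ in them, were all higher in STAT6 MUT, and a part of the motifs in this was not tested.

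**Figure D1:**
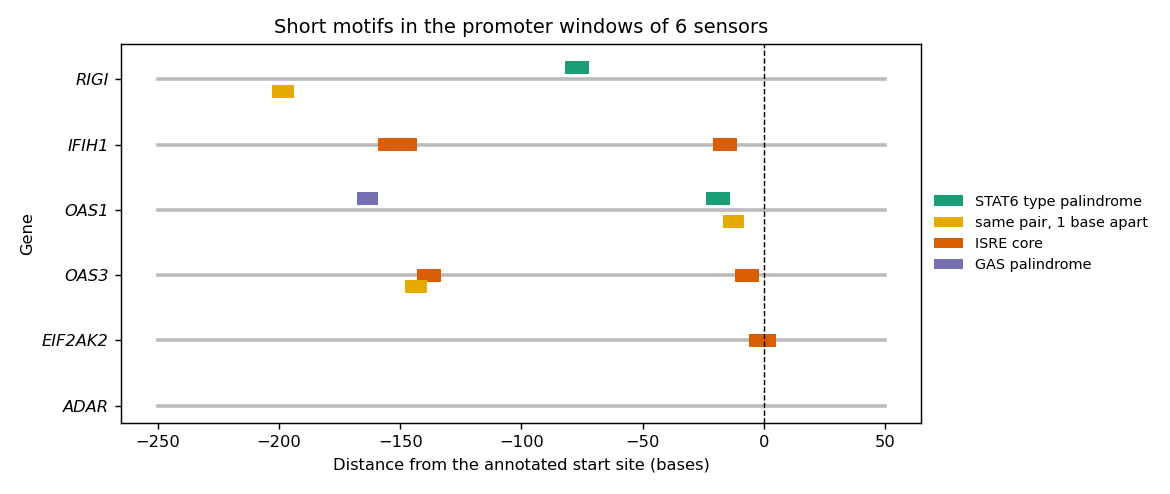
Motif positions in the promoter windows of 6 genes, drawn to scale as distance in bases from the annotated start site (dashed line), with 1 gray line per gene and 1 bar per match. The ISRE cores of OAS3, IFIH1, and EIF2AK2 lie close to or across the start, at -12 to -3, -21 to -12, and -6 to 4, and the line of ADAR carries no bar.

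Of the 10 genes, 8 had enough UMIs to be tested across time points, and all 8 were higher in STAT6 MUT than in STAT6 WT (edgeR's quasi-likelihood test with time point as a covariate, Benjamini-Hochberg adjustment over all genes tested, called at an adjusted p under 0.05). In bulk RNA, more cells that express a gene and more RNA per cell cannot be told apart. Over the whole table, 6.74% of 9261 genes were called higher in this comparison. The median log2 fold change of the 8 genes was 0.71, against 0.00 (0.0012) for all genes. The mean level of STAT6 MUT exceeded that of STAT6 WT at all 3 time points in 8 of 8 genes. For OAS1 at 2 h, however, the median of STAT6 MUT (42.1 CPM) lay below that of STAT6 WT (43.1 CPM). Without libraries of low depth, its difference in mean log2 CPM at 2 h was -0.05. The largest changes were those of the helicases DHX58 (log2 fold change 1.13, SE 0.154, adjusted p = 1.5e-08) and RIGI (1.05, SE 0.130, adjusted p = 8e-10). They were followed by OAS2 (0.93, adjusted p = 1.5e-11), EIF2AK2 (0.84, adjusted p = 1.6e-13), IFIH1 (0.57, adjusted p = 3.7e-04), OAS1 (0.46, adjusted p = 7.2e-06), ADAR (0.44, adjusted p = 3.2e-12), and OAS3 (0.38, adjusted p = 4.7e-04, and 0.0615 without replicate number 3). For ADAR this is a fold of 1.36 with an SE of only 0.0472 on the log2 scale.

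**Figure D2:**
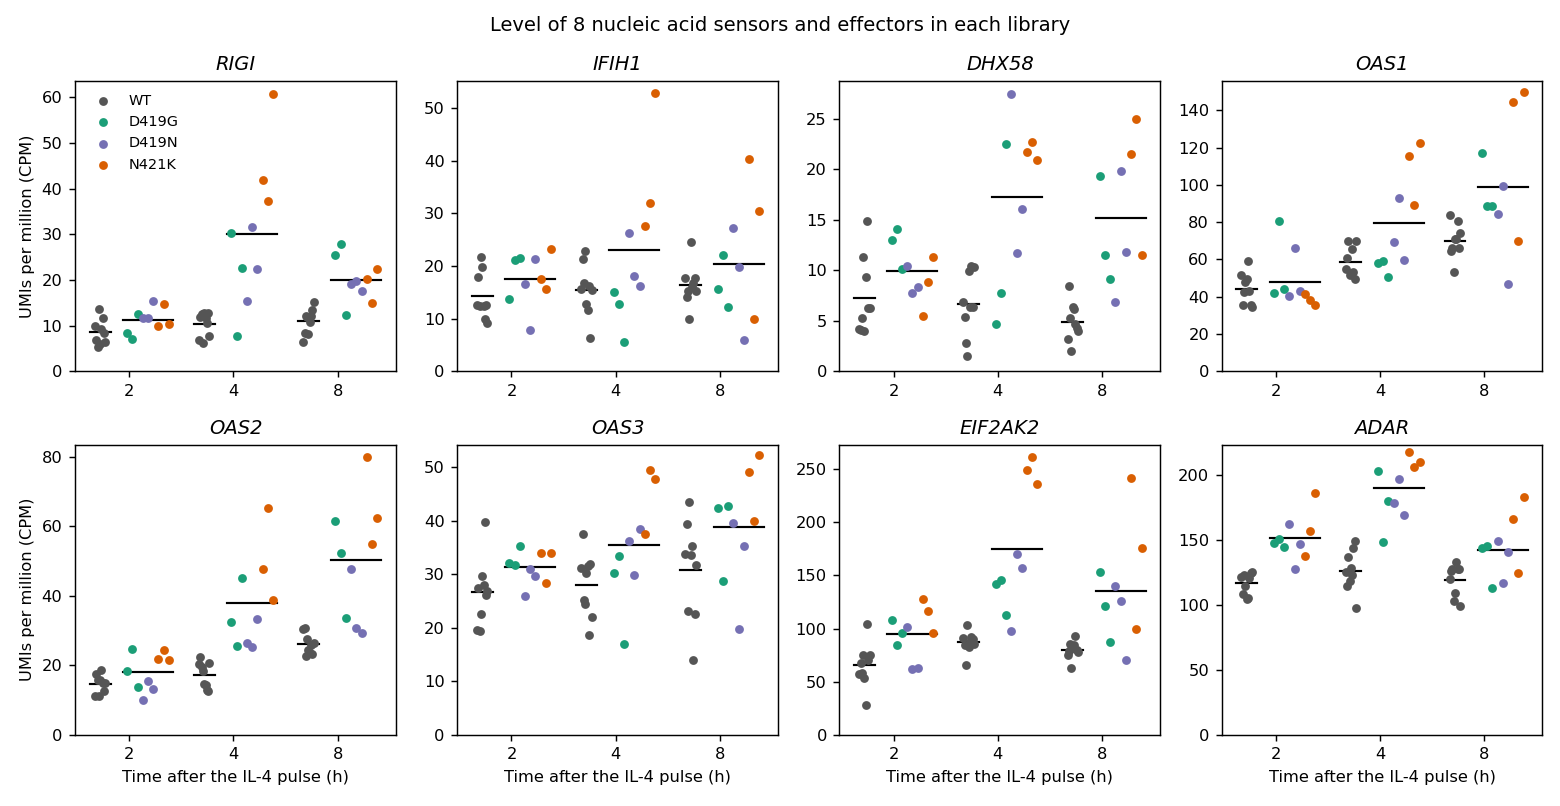
CPM (axis from 0) of 8 genes in each of 54 libraries at 2, 4, and 8 h after the IL-4 pulse, with 1 point per library colored by STAT6 line and horizontal bars for the means of STAT6 WT (n = 9) and STAT6 MUT (n = 9). The bar of STAT6 MUT lies above that of STAT6 WT in all panels and at all times, and the N421K libraries at 4 h reach 60.8 CPM for RIGI and 261 CPM for EIF2AK2.

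The 3 helicases were the scarcest of the genes tested. In STAT6 WT, RIGI ranged from 5.3 to 13.5 CPM at 2 h (median 8.38), from 6.1 to 12.8 at 4 h (median 11.7), and from 6.43 to 15.2 at 8 h (median 11.9). In STAT6 MUT, RIGI ranged from 7.03 to 15.5 CPM at 2 h (median 11.6), from 7.69 to 60.8 at 4 h (median 30.2), and from 12.2 to 27.8 at 8 h (median 19.8). The groups thus overlapped at 2 h, whereas the highest STAT6 WT library was exceeded by 8 of 9 STAT6 MUT libraries at 4 h and by 7 of 9 at 8 h. The exception at 4 h was a D419G library of low depth at 7.69 CPM, which held 3 UMIs of RIGI. RIGI was called at 4 h, with a log2 fold change of 1.63 (SE 0.224, adjusted p = 9.6e-07), and at 8 h, with 0.87 (SE 0.175, adjusted p = 0.00248). At 2 h it fell below the filter, and without the filter it had a log2 fold change of 0.45 (adjusted p = 0.431).

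MDA5 differed less. IFIH1 ranged from 9.07 to 21.8 CPM in STAT6 WT and from 7.75 to 23.2 in STAT6 MUT at 2 h, from 6.37 to 22.9 and from 5.63 to 52.8 at 4 h, and from 9.89 to 24.5 and from 5.88 to 40.4 at 8 h. The groups overlapped at every time point, and the highest STAT6 MUT values at 4 and 8 h were those of N421K. IFIH1 was called at 4 h only (log2 fold change 0.76, SE 0.220, adjusted p = 0.034). DESeq2 (adjusted p = 0.13), limma-voom (0.145) leaving out N421K (0.8), and leaving out replicate number 1, 3, 5, 6, or 8 (0.0645 to 0.101) each ended that call.

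LGP2 was counted at a median of 6 UMIs per library in STAT6 WT and 9 in STAT6 MUT. DHX58 had medians of 6.28, 6.37, and 4.63 CPM in STAT6 WT at 2, 4, and 8 h, and of 10.1, 20.9, and 11.8 CPM in STAT6 MUT. At 8 h, STAT6 WT ranged from 1.98 to 8.43 CPM and STAT6 MUT from 6.81 to 25.0, and 8 of 9 STAT6 MUT libraries exceeded the STAT6 WT maximum. DHX58 was left out by the filter at single time points, and without the filter its log2 fold changes at 2, 4, and 8 h were 0.56, 1.29, and 1.53 (adjusted p = 0.324, 2.4e-05, and 7.8e-06).

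Among the synthetases, OAS2 differed most. OAS2 ranged from 12.7 to 22.5 CPM in STAT6 WT at 4 h (median 18.3) and from 25.3 to 65.4 in STAT6 MUT (median 33.4), so that all 9 STAT6 MUT libraries lay above all 9 STAT6 WT libraries. Such complete separation was found for 0.267% of the genes tested at 4 h. At 8 h, the ranges were 22.8 to 30.9 and 29.4 to 80.1 CPM, and 7 of 9 STAT6 MUT libraries exceeded the STAT6 WT maximum. At 2 h, 11.2 to 18.7 and 9.91 to 24.6 CPM overlapped widely. OAS2 passed the test at 4 h (log2 fold change 1.14, SE 0.173, adjusted p = 9.8e-06) and 8 h (1.15, SE 0.140, adjusted p = 2.4e-07), and its log2 fold change at 2 h was 0.28 (adjusted p = 0.361).

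OAS1 differed less. It had medians of 43.1, 54.6, and 70.7 CPM in STAT6 WT and of 42.1, 69.1, and 88.7 CPM in STAT6 MUT. At 2 h only 3 of 9 STAT6 MUT libraries lay above the STAT6 WT median, against 8 of 9 at 4 h and 7 of 9 at 8 h. Its log2 fold change was 0.06 at 2 h (SE 0.121, adjusted p = 0.842), 0.55 at 4 h (SE 0.125, adjusted p = 0.00469), and 0.65 at 8 h (SE 0.115, adjusted p = 4.5e-04).

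OAS3, one of the synthetases, did not pass the test at any single time point after the filter. Its medians were 26.9, 30.2, and 33.5 CPM in STAT6 WT and 31.6, 36.2, and 40.0 CPM in STAT6 MUT, and the groups overlapped throughout. The log2 fold changes were 0.24 (95% interval -0.01 to 0.48), 0.38 (0.11 to 0.66), and 0.53 (0.22 to 0.84), with adjusted p = 0.266, 0.135, and 0.0825. At 8 h the call depended on the settings, and OAS3 passed without the filter (adjusted p = 0.0247), in a contrast from one model of 54 libraries (0.0282), without D419N (0.0371), and without replicate number 2 (0.00729) or 4 (0.0493).

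PKR had the smallest adjusted p across time points among the 10 genes. EIF2AK2 ranged from 28.0 to 104 CPM in STAT6 WT at 2 h (median 67.4), from 65.9 to 104 at 4 h (median 87.4), and from 63.3 to 92.6 at 8 h (median 79.8). In STAT6 MUT, it ranged from 62.0 to 128 (median 96.1), from 97.7 to 261 (median 157), and from 70.5 to 242 (median 126). At 4 h, 8 of 9 STAT6 MUT libraries exceeded every STAT6 WT library. EIF2AK2 was called at 2 h (log2 fold change 0.51, SE 0.107, adjusted p = 6.4e-04), 4 h (1.07, SE 0.124, adjusted p = 1.3e-08), and 8 h (0.89, SE 0.125, adjusted p = 6e-06).

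ADAR, counted with medians of 121 UMIs per library in STAT6 WT and 137 in STAT6 MUT, separated the groups completely at 2 h. STAT6 WT ranged from 105 to 125 CPM (median 121) and STAT6 MUT from 128 to 186 (median 148). All 9 STAT6 MUT libraries lay above all 9 STAT6 WT libraries, as for 0.312% of the genes tested at 2 h. At 4 h, 98.1 to 149 CPM faced 149 to 218 CPM, with 8 of 9 STAT6 MUT libraries over the STAT6 WT maximum. At 8 h, 99.0 to 133 CPM and 113 to 183 CPM overlapped. The log2 fold changes were 0.39 at 2 h (SE 0.0726, adjusted p = 1.1e-04), 0.62 at 4 h (SE 0.0783, adjusted p = 1.5e-07), and 0.31 at 8 h (SE 0.0852, adjusted p = 0.0542). At 8 h the call depended on the settings, and ADAR passed in 7 of 21 alternative fits (lowest adjusted p = 0.0249). Among these were the fits without libraries of low depth, without D419G, and without D419N.

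The remaining genes were close to the limit of detection. OASL gave 22 UMIs in 13 of 27 STAT6 MUT libraries and 6 UMIs in 6 of 27 STAT6 WT libraries, of 24570276 and 30870410 UMIs in all. Without the filter, its log2 fold change across time points was 1.69 (SE 0.412, adjusted p = 0.00919), a fitted value that depends on the prior count at such low counts. ZBP1 gave 2 UMIs in STAT6 MUT and 4 in STAT6 WT, and a difference was not detectable at this depth.

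Fewer genes were called at 2 h than at 4 or 8 h. At 2 h, 2 of 6 genes tested were called higher (EIF2AK2 and ADAR), where 3.92% of all genes tested were. Without replicate number 1, 1 was called at 2 h (ADAR), where 182 of 8675 genes tested were called higher. With all libraries, 6 of 7 were called higher at 4 h (RIGI, IFIH1, OAS1, OAS2, EIF2AK2, and ADAR), against 1.96%. At 8 h it was 4 of 7 (RIGI, OAS1, OAS2, and EIF2AK2), against 0.852%. The median log2 fold change of the genes tested was 0.32, 0.76, and 0.65 at 2, 4, and 8 h, and none was called lower. At 8 h, no gene of the 10 separated the groups completely, while 0.0682% of the genes tested did. Without libraries of low depth, 3 of 8 genes did so at 8 h (DHX58, OAS1, and OAS2, with 7 STAT6 MUT and 8 STAT6 WT libraries). At 4 h, 3 of 8 did then (RIGI, OAS2, and ADAR). The share over all genes was not computed without these libraries. A two-sided exact permutation test on log2 CPM was run in 8 genes at 3 time points (24 tests, p unadjusted). Its p was 4.1e-05 for ADAR at 2 h and for OAS2 at 4 h. This is the smallest possible value, which complete separation always gives. The permutation p lay under the threshold used for calls in 4, 6, and 6 of 8 genes at 2, 4, and 8 h. Without libraries of low depth, it was 3, 8, and 6 of 8 genes. No other genes were put to this test, so these counts have no share over all genes beside them. For IFIH1 the permutation p was 0.183, 0.248, and 0.586, so with all libraries this test did not share edgeR's call of IFIH1 at 4 h. Without libraries of low depth, the permutation p of IFIH1 was 0.0746, 0.0191, and 0.0775. For OAS3 the permutation p was 0.0407, 0.108, and 0.122, and without those libraries 0.076, 0.0108, and 0.134.

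**Figure D3:**
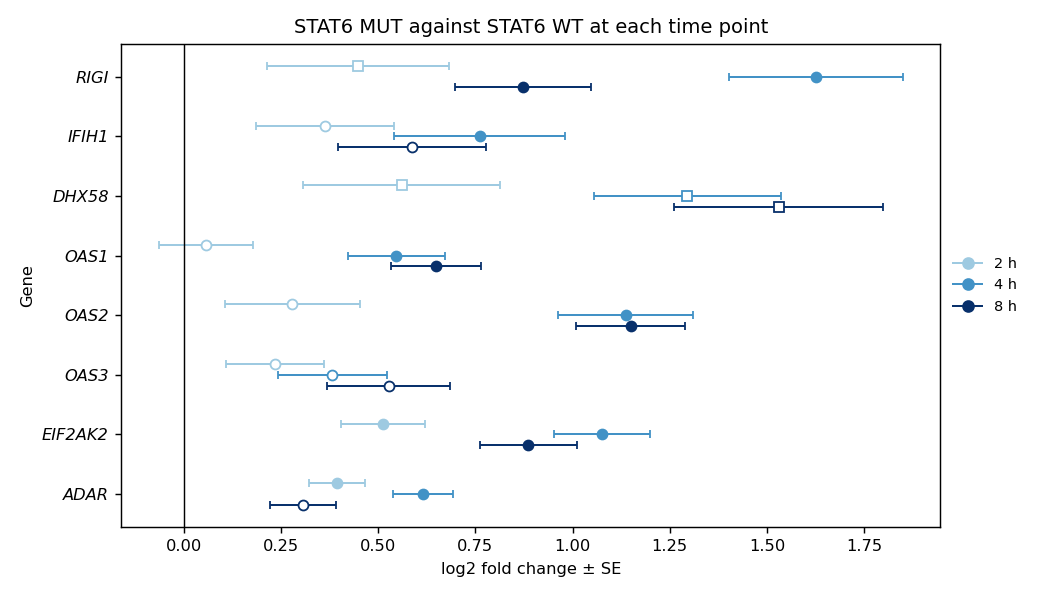
Log2 fold change of STAT6 MUT against STAT6 WT (x axis, error bars ± SE) of 8 genes at 2, 4, and 8 h, n = 9 libraries each. Filled points passed an adjusted p of 0.05 in edgeR's quasi-likelihood test, open circles did not, and open squares are unfiltered values of genes left out by the filter. RIGI at 4 h lies farthest right at 1.63, and OAS1 at 2 h lies at 0.06.

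The summed level of the 8 genes is given as a description, without a test. In STAT6 WT it was 298 CPM ± 26.6 at 2 h, 350 ± 9.38 at 4 h, and 358 ± 20.1 at 8 h (SD, n = 9). In STAT6 MUT it was 383 ± 30.5, 588 ± 143, and 521 ± 134. The spread between STAT6 MUT libraries at 4 and 8 h was larger than that between STAT6 WT libraries.

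Within STAT6 WT, 3 of 7 genes tested (OAS1, OAS2, and EIF2AK2) differed between time points, while 29.4% of all genes tested did. From 2 h, the log2 changes at 4 and 8 h were 0.52 and 0.79 for OAS1, 0.22 and 0.78 for OAS2, and 0.32 and 0.23 for EIF2AK2. Within STAT6 MUT, 7 of 8 genes differed, all tested except IFIH1 (adjusted p = 0.0527), against 31.7% of all genes. The log2 changes were 1.53 and 0.91 for RIGI, 1.11 and 1.64 for OAS2, 1.01 and 1.39 for OAS1, 0.87 and 0.60 for EIF2AK2, 0.78 and 0.55 for DHX58, and 0.33 and -0.05 for ADAR. The mean level of STAT6 MUT was highest at 4 h for the 3 helicases, EIF2AK2, and ADAR, and at 8 h for OAS1, OAS2, and OAS3. The lines were not alike in this. In D419G, RIGI stood at 9.35, 20.1, and 21.8 CPM, IFIH1 at 18.8, 11.2, and 16.7 CPM, and DHX58 at 12.4, 11.6, and 13.3 CPM at 2, 4, and 8 h (means, n = 3 each), so that none of the helicases was highest at 4 h there, while all 3 were in D419N and N421K. Replicates 2 and 3 of D419G at 4 h were libraries of low depth (399227 and 175878 UMIs in all). The D419G libraries at 4 h held 3 to 26 UMIs of RIGI, 1 to 13 of IFIH1, and 3 to 4 of DHX58. Depth thus limits the comparison of the lines at 4 h. OAS3 was highest at 4 h in D419N (34.8 CPM, and 31.5 at 8 h).

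Whether the effect of genotype differed between time points was tested directly. By edgeR, 0 of 8 genes passed (0.957% of all genes tested did), and neither did any by DESeq2 or limma-voom (0 each). The unadjusted p was under 0.05 for 6 of 8 genes, the smallest being those of OAS2 and RIGI (both 0.001, adjusted p = 0.0768). The larger number of calls at 4 h is therefore not shown to be a difference between time points. Time points lay in different plate rows, so time and plate row cannot be told apart.

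The 3 mutant lines were set against STAT6 WT in a model of line and time point. In D419G, 5 of 8 genes were called higher (RIGI, DHX58, OAS2, EIF2AK2, and ADAR), against 3.16% of all genes. In D419N, it was 4 of 8 (RIGI, DHX58, EIF2AK2, and ADAR), against 1.49%, and in N421K 8 of 8, against 6.76%. RIGI, DHX58, EIF2AK2, and ADAR were thus called in each line. All 8 log2 fold changes were largest in N421K, with medians of 0.47, 0.40, and 1.06 for D419G, D419N, and N421K. Without replicate number 1 of each group, 2 of 8 genes were called in D419G. Over the whole table, 136 of 9704 genes were called higher there, against 307 of 9706 with all libraries. In that fit, RIGI (adjusted p = 0.119), DHX58 (0.103), and ADAR (0.113) lost their calls in D419G, and DHX58 also lost it without number 3 (0.0627). In D419N, DHX58 lost its call without number 1 (adjusted p = 0.0892) and RIGI without number 2 (0.132). Each line gave 9 libraries, and the comparisons share the same STAT6 WT libraries. Of low depth were replicate 2 at 2 h and replicates 2 and 3 at 4 h in D419G. In D419N, these were replicate 2 at 2 h and replicate 3 at 8 h, and in N421K, replicate 2 at 8 h. The part of depth in the numbers called per line was not tested.

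**Figure D4:**
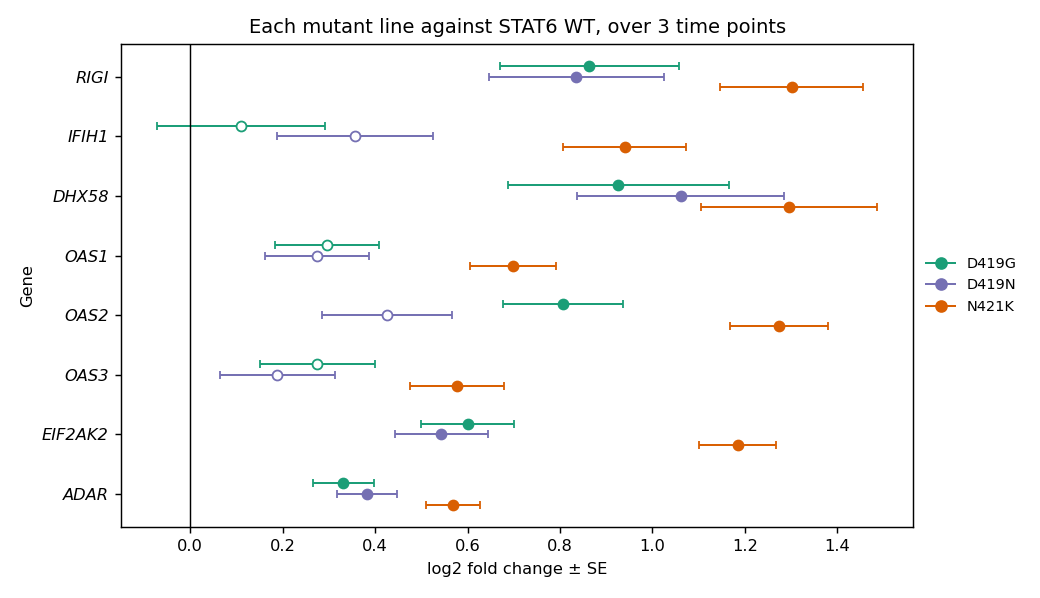
Log2 fold change of D419G, D419N, and N421K against STAT6 WT over 3 time points (x axis, error bars ± SE, n = 9 libraries per line against 27) for 8 genes. Filled points passed an adjusted p of 0.05, and the N421K points lie rightmost for all 8 genes, from 0.57 (ADAR) to 1.30 (RIGI).

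The difference among the lines passed a joint test for 4 of 8 genes, IFIH1, OAS1, OAS2, and EIF2AK2, against 2.39% of all genes. Without replicate number 1 or 3, 1 and 2 genes passed, where 51 of 9704 and 102 of 9892 genes tested did. For EIF2AK2, the N421K libraries at 4 h held 249, 261, and 236 CPM, the D419G libraries 142, 146, and 113, and the D419N libraries 97.7, 171, and 157. The N421K values lay above the others at 4 h, and the share of all genes with such separation was not computed. The D419G values of 146 and 113 came from libraries of low depth (57 and 20 UMIs). At 2 h, N421K (96.1 to 128 CPM) overlapped D419G (84.3 to 108) and D419N (62.0 to 101). At 8 h, N421K (100 to 242) overlapped D419G (87.1 to 153) and D419N (70.5 to 140). In the model of all time points, N421K exceeded D419N by a log2 difference of 0.64 (SE 0.108, adjusted p = 2.3e-05) and D419G by 0.58 (SE 0.109, adjusted p = 2.1e-04). Over 3 time points, the log2 fold changes of EIF2AK2 were 0.60 for D419G, 0.54 for D419N, and 1.18 for N421K.

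For IFIH1, the libraries of 4 h held 27.7, 32.0, and 52.8 CPM in N421K, 15.1, 12.8, and 5.63 in D419G, and 26.3, 18.0, and 16.1 in D419N. The D419G values were 13, 5, and 1 UMIs, and those at 12.8 and 5.63 CPM came from libraries of low depth. The D419G values lay within or under the range of STAT6 WT, and the log2 fold change of IFIH1 was 0.11 in D419G (95% interval -0.24 to 0.47, adjusted p = 0.828), 0.36 in D419N (adjusted p = 0.327), and 0.94 in N421K (adjusted p = 3.8e-08). N421K exceeded D419G by 0.83 (SE 0.187, adjusted p = 0.00505).

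For OAS2 at 8 h, N421K held 80.1, 55.0, and 62.4 CPM, D419G 61.6, 52.4, and 33.6, and D419N 47.7, 30.9, and 29.4. The 55.0 CPM of N421K and the 29.4 CPM of D419N came from libraries of low depth (11 and 5 UMIs of OAS2). D419N was the lowest line for OAS2, and N421K exceeded it by a log2 difference of 0.85 (SE 0.141, adjusted p = 1.9e-05). For OAS1, N421K exceeded D419N by 0.42 (SE 0.123, adjusted p = 0.0466). Between D419G and D419N, 0 of 8 genes passed edgeR's test (unadjusted p under 0.05 for 1, OAS2), and the 95% intervals of the log2 difference still allowed -0.41 to 0.47 for RIGI and -0.67 to 0.18 for IFIH1.

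Without N421K, 5 of 7 genes tested remained called across time points (ADAR, EIF2AK2, OAS1, OAS2, and RIGI), where 3.28% of all genes tested were called higher, and IFIH1 (log2 fold change 0.24, adjusted p = 0.304) and OAS3 (0.23, adjusted p = 0.163) were not. DHX58 was then left out by the filter. At 2, 4, and 8 h, 1 of 6 (ADAR), 4 of 7 (ADAR, EIF2AK2, OAS2, and RIGI), and 3 of 7 (EIF2AK2, OAS2, and RIGI) were called without N421K, against 1.44%, 0.669%, and 0.57% of all genes tested. OAS1 lost its calls at 4 h (adjusted p = 0.517) and 8 h (adjusted p = 0.0592), EIF2AK2 at 2 h (adjusted p = 0.0586), and DHX58, unfiltered, at 4 h (adjusted p = 0.0802). Without the 8 libraries of low depth, 8 of 8 genes were called across time points, against 5.99% of all genes tested.

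The other genes of nucleic acid sensing were read from 6 lists. Interferon ligands were close to the limit of detection. Of 21 ligand genes, 4 had a row in the count table (IFNA5, IFNB1, IFNW1, and IFNL1), the others were not analysed here, and together they gave 8 UMIs in STAT6 MUT and 7 in STAT6 WT. IFNB1 had 6 and 3 UMIs. None was tested.

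Among genes for interferon receptors, their kinases, and ISGF3, IRF9 and STAT2, which encode subunits of ISGF3, were called higher across time points. IRF9 rose by 1.32 on the log2 scale (adjusted p = 3.7e-09) and STAT2 by 0.35 (adjusted p = 0.0186). The receptor chains IFNAR1 (0.06) and IFNAR2 (-0.03) and the kinases JAK1 (0.00, SE 0.0667) and TYK2 (0.05) did not pass.

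Of 12 adaptors, kinases, and IRFs of RNA and DNA sensing that were tested, 4 were called higher (6.74% of all genes tested were) and none lower. IRF7, the interferon regulatory factor that amplifies interferon production, had a log2 fold change of 1.45 (adjusted p = 1.6e-20), from 14.0 CPM ± 3.37 to 35.6 ± 14.2 (SD, n = 27 each). TRIM25, the ubiquitin ligase that activates RIG-I, rose by 0.47 (adjusted p = 8.1e-09), TRAF3 by 0.34 (adjusted p = 0.00697), and MYD88 by 0.21 (adjusted p = 0.0281). The adaptor MAVS (-0.05, adjusted p = 0.57), the kinase TBK1 (0.09, adjusted p = 0.577), and IRF3 (-0.14, adjusted p = 0.2) did not pass, and the median of the list was -0.01.

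Of 8 other sensors tested, 3 were called higher (6.74% of all genes tested were) and none lower. The 3 sensors were ZC3HAV1, the zinc finger antiviral protein ZAP (log2 fold change 0.40, adjusted p = 8e-08), ZNFX1 (0.35, adjusted p = 1.0e-04), and the DNA sensor IFI16 (0.18, adjusted p = 0.00293). The DNA sensor AIM2 (-0.09, adjusted p = 0.676) and the helicase DHX9 (0.00, SE 0.0359) did not pass, and CGAS (50 and 55 UMIs in STAT6 MUT and STAT6 WT), TLR3, and TLR7 had too few UMIs to be tested.

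Among 9 nucleases and RNA-processing genes that limit sensing, edgeR called 0, with an unadjusted p under 0.05 for 1. SAMHD1 had a log2 fold change of 0.07 (SE 0.0611). Of 10 eIF2α kinases and partners of PKR, 1 was called higher, near the share of all genes tested (6.74%). It was DNAJC3, whose product inhibits PKR (0.25, adjusted p = 0.00254). The kinases EIF2AK1 (0.10), EIF2AK3 (-0.29, adjusted p = 0.0605), and EIF2AK4 (-0.02) did not pass.

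Of 10 housekeeping genes, GAPDH was called higher (0.12, adjusted p = 3.4e-04) and ACTB lower (-0.14, adjusted p = 0.0323), and the median of the list was 0.00 (0.0046). The log2 fold change of OAS3, the smallest of the 8, was 0.38 on the same scale.

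**Figure D5:**
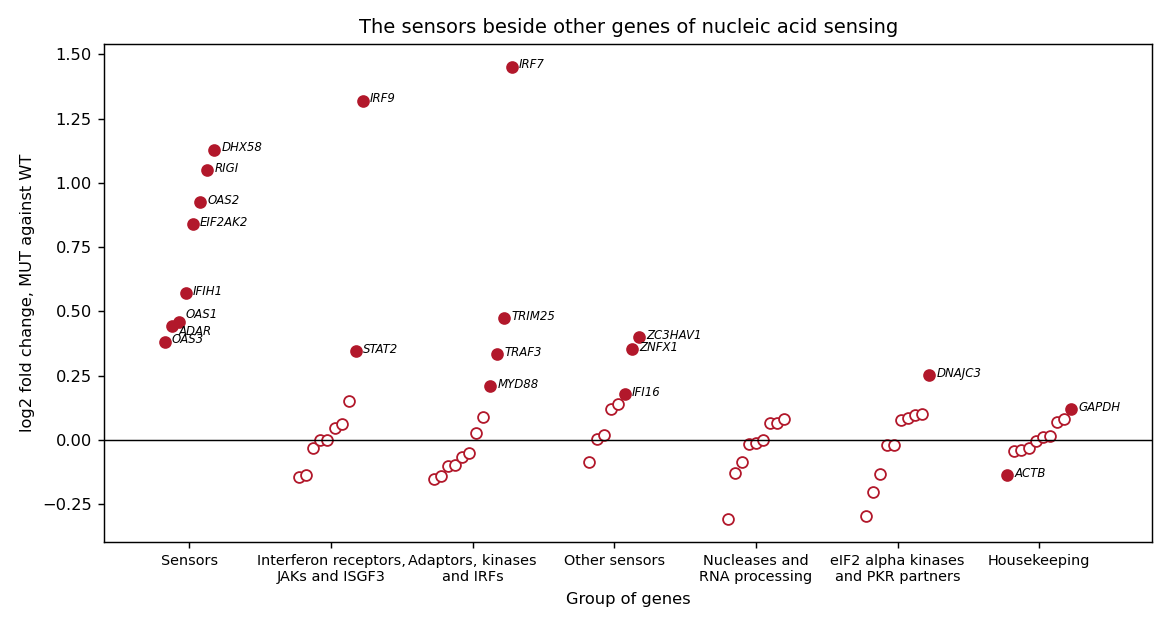
Log2 fold change of STAT6 MUT against STAT6 WT across time points (y axis) for the 8 sensors and for 6 lists of related or housekeeping genes (x axis), 1 point per gene reported here, filled and named where the adjusted p was under 0.05. Among the interferon receptors, kinases, and ISGF3, the filled points shown are IRF9 at 1.32 and STAT2 at 0.35.

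Over the 54 libraries, among the genes whose log2 CPM followed the mean of the 8 sensors most closely were MX1 (Pearson's r = 0.865), ISG15 (r = 0.865), IRF7 (r = 0.842), and EPSTI1 (r = 0.818). These coefficients are a description over libraries that share genotype, time point, and sequencing depth. Each sensor was also set against the mean of the other 7, and r was highest for EIF2AK2 (0.823), RIGI (0.762), and OAS2 (0.734), and lowest for OAS3 (0.484) and IFIH1 (0.491).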

How the data were processed

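The authors made prime-seq libraries (3′ ends, UMIs) for Illumina sequencing and ran the Drop-seq pipeline on the reads. They deposited whole UMI counts, 1 column per well and 1 line per gene, neither normalized nor filtered nor pooled. The submitters' processing notes name the genome build hg38. The aligner, annotation, and strand setting are not given in the sources used. All 54 libraries were mapped to line, time point, and replicate number by their labels, 0 columns were left unused, and 0 lines lacked an identifier. Some genes of the series, members of the lists among them, are not reported here.

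Counts were analyzed with R 4.3.3 and edgeR 4.0.16 (TMM, filterByExpr, quasi-likelihood test, Benjamini-Hochberg adjustment over all genes tested, threshold 0.05). The models held time point and genotype, genotype within each time point, time point and line, or 6 groups for the interaction. Log2 CPM used a prior count of 2. Values named as unfiltered came from the same fit with all genes of at least 1 count. Exact permutation tests were two-sided. DESeq2 1.42.0, limma 3.58.1, other scalings and filters, and fits without libraries, replicate numbers, or lines were alternatives. The edgeR fit was tested on simulated counts for genotype across time points and at 4 h, D419N against STAT6 WT, and the joint tests. The other comparisons and the alternatives were not run on simulated counts. Figures used Python 3.11.15 with matplotlib 3.10.9.

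The 10 genes and the lists (sensors, adaptors, ligands, receptors, nucleases, eIF2α kinases, housekeeping) were chosen with earlier results of these data known, and by name, not by their values in these fits. All 10 genes are named, and the genes named from the lists are those called across time points and the best known members of each. OASL and ZBP1 had too few UMIs for the filter, and among the genes tested depth limits DHX58, RIGI, and IFIH1 most, with median UMIs per STAT6 WT library of 6, 9, and 15.

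Replicate numbers are shared between groups. Deviations from the group means of libraries with the same number correlated by -0.237 to 0.256, with medians near 0 (-0.00396 to 0.0114), so the numbers were not taken to pair libraries.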

Additional observations from a re-analysis of the deposited data

Results flagged for a closer look

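Among the mutant lines, the difference itself passed edgeR's joint test after Benjamini-Hochberg adjustment for 4 genes. The adjusted p was 3.33e-06 for EIF2AK2, 3.96e-05 for OAS2, 0.00416 for IFIH1, and 0.0309 for OAS1, and N421K had the largest log2 fold change against STAT6 WT for each (1.18, 1.27, 0.94, and 0.70). Each line was compared as 1 transduced population, so line and mutation cannot be told apart.

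In STAT6 WT at 2 h, replicate 7 had 39.8 CPM of OAS3 (24 UMIs), far from the next library at 29.7 CPM. It was the only library set apart from its group in this way among 48 groups of 9 examined, where about 1 in 20 would be by chance.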

How the results depend on the processing

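Without the line N421K, 5 genes were called across time points and 1 at 2 h, in place of 8 and 2. In these fits, 3.28% and 1.44% of all genes tested were called higher. With the replicate block, 1 gene was called at 2 h and 2 at 8 h, in place of 2 and 4, and 0 for the interaction. Over the whole table, the block left 86 of 10636 genes called higher at 2 h and 27 of 11016 at 8 h. The main fits called 339 of 8651 and 75 of 8801 higher. Replicate numbers 4 to 9 occur only in STAT6 WT, so under the block those libraries added nothing directly to the difference between genotypes. It then rested on numbers 1 to 3, with fewer STAT6 WT libraries. The block ended the calls of IFIH1 (adjusted p = 0.0998) across time points, ADAR (0.0686) at 2 h, IFIH1 (0.676), OAS1 (0.395), and OAS2 (0.128) at 4 h, and RIGI (0.232), OAS1 (0.159), and DHX58 (0.268, against the unfiltered call) at 8 h, and the numbers were not taken to pair libraries. At 8 h, 7 genes were called without D419N and 7 by a contrast from one model of 54 libraries. Among all genes, 85 of 9431 and 120 of 9507 tested were called higher in these fits. For the interaction of genotype and time point, 0 became 2 without the filter and 1 without low-depth libraries, without D419G, or without D419N. Over the whole table, these fits called 122 of 31835, 104 of 9820, 95 of 9835, and 98 of 9839 genes. Leaving out each replicate number gave 1 to 2 genes at 2 h, 2 to 5 for D419G, 1 to 4 for the difference among lines, and 0 to 1 for the interaction. Over all genes, the same fits called 182 to 371 and 136 to 308 higher, and 51 to 240 and 45 to 95 in the joint tests. With all libraries, the counts over all genes were 339, 307, 232, and 91. OAS1 at 2 h reached -0.00 (-0.0023, log2) without low-depth libraries, -0.05 (-0.0504) in mean log2 CPM by the exact permutation test there, -0.02 (-0.0154) without D419G, and -0.06 to 0.13 (-0.0646 to 0.1251) without single replicate numbers, and OAS2 at 2 h -0.03 (-0.033) without N421K. The cause was not tested. Of 1064 alternative fold changes, 1016 kept direction and side of the threshold, as did 184 of 199 counts within 1.5 times. DHX58, OASL, and ZBP1 are limited by depth.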
